A study of Mus musculus with 6 samples.

Results

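The AP-1 genes examined here are Fos, Fosb, Fosl1, Fosl2, Jun, Junb, Jund and Atf3. They were chosen by name, and all 8 were found among the 24421 gene rows of the count table. The data are bulk RNA sequencing of mouse induced pluripotent stem cells (iPSCs), cells reprogrammed to a state like that of embryonic stem cells. Of the 6 libraries, 3 came from SRFΔ/Δ cells, in which the serum response factor gene is knocked out (SRF KO). The other 3 came from SRFf/f cells, which carry the floxed, undeleted allele (WT). Both genotypes were kept in medium with serum. Whether the replicates are separate clones or cultures, how the allele was recombined and whether feeder cells were present is not given in the sources used here, so that p-values measure the spread between these libraries, which may be technical.

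AP-1 is a transcription factor made of pairs of basic leucine zipper (bZIP) proteins. Fos proteins do not form stable pairs with each other and bind DNA together with a Jun protein, while Jun proteins can also pair among themselves, and Atf3 pairs with Jun proteins and with itself. Fos, Fosb and Junb are classical immediate-early genes, transcribed within minutes of serum or growth factor signalling. The Fos promoter is the textbook target of SRF, which sits on its serum response element together with ternary complex factors such as Elk1 that are phosphorylated by ERK.

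Total counts were between 26321602 and 36680156 per library. Levels are given as counts scaled to a common total (CPM) after TMM adjustment of the library sizes. Differences are log2 fold changes, positive where SRF KO was higher, with their standard error (SE), and were tested with edgeR over all genes and transposable element subfamilies with a threshold of 0.05 on the adjusted p. Srf itself had 34.5 ± 4.14 CPM in the WT libraries and 3.97 ± 0.707 CPM (SD, n = 3) in those of SRF KO. In bulk RNA, fewer cells of a type and less RNA per cell cannot be told apart. All 12 pluripotency markers examined were detected and tested in these libraries, 1 higher and 7 lower in SRF KO, with a median log2 fold change of -0.27. Among all genes tested, 21.2% passed the threshold as higher and 21.3% as lower.

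To show the promoters of the members that changed, the bases upstream of the start of transcription were taken from RefSeq's GRCm38.p6 table, which had a window for 7 of the 8 genes. GRCm38 is the assembly also called mm10, the build in the submitters' processing notes. Fos, Fosb, Jun and Atf3 are printed 5′ to 3′, each ending just before the first base annotated as transcribed, because they include the largest fall and both directions of change. Capitals mark motifs found by a search of both strands. The Fos window is chr12:85473640-85473889 on the plus strand. The others are on the minus strand, Fosb at chr7:19310052-19310295, Jun at chr4:95052223-95052472 and Atf3 at chr1:191183341-191183583, the last at an internal start within the gene. Bases that the GENCODE annotation places in an exon were left out, which removed the last 6 bases before the RefSeq start in Fosb and the last 7 in Atf3. Positions given below are counted from the RefSeq start.
Fos: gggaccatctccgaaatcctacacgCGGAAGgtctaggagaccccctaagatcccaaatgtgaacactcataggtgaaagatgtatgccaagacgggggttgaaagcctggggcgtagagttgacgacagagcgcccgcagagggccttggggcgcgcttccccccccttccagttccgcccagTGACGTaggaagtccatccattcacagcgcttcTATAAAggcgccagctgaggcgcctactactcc
Fosb: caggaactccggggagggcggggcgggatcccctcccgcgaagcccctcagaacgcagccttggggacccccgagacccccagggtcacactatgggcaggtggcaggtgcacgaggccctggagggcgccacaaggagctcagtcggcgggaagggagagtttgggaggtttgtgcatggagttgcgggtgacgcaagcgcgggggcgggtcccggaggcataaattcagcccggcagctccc
Jun: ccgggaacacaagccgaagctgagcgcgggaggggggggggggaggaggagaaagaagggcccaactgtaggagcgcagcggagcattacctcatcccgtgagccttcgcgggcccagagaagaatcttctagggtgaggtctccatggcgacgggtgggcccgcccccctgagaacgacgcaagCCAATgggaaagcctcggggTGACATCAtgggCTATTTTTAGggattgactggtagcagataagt
Atf3: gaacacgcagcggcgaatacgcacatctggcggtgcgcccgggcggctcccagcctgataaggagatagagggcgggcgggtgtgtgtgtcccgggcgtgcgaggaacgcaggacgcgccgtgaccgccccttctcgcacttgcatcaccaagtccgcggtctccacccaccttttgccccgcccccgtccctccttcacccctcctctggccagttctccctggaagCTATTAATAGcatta

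In the Fos window the search found the ETS core CGGAAG, the cAMP response core TGACGT and the TATA motif TATAAA, whose first bases lie at -225, -66 and -33 from the RefSeq start. The Jun window holds a CCAAT box at -65, the Jun-type AP-1 site TGACATCA at -45 and a MEF2 site at -33, and the Atf3 window a MEF2 site at -22. Junb, whose window is not printed, has CCAAT at -36 and an ETS core at -22. The Fosb and Jund windows gave no match for any motif searched, and the Jund window belongs to a RefSeq start that lies 1210 bases before the GENCODE gene. The Fosl2 window lies wholly within a GENCODE exon and was not searched. The CArG box, which SRF binds, and the AP-1 site TGANTCA had no match in the 6 windows searched. No match says only that these letters are not in these windows; the serum response element known from the Fos promoter lies upstream of the window shown. Among 32851 RefSeq windows of 250 bases, a CArG box was found in 1.47%, a MEF2 site in 0.508%, TGACGT in 6.47%, TGANTCA in 6.75%, TGACATCA in 2.93%, CGGAAG in 13.6%, TATAAA in 12.4% and CCAAT in 33.8%. MEF2 and TGACATCA overlap no other motif in these windows. A match is a description of the sequence and not a bound site.

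Fos showed the largest difference of the 8 genes. It encodes the founding Fos protein, a strong activator when paired with Jun. Its counts were 1151, 1049 and 1279 in SRF KO and 11567, 8032 and 9532 in WT. On the CPM scale these are 42.8, 39.6 and 44.2 in SRF KO and 319, 312 and 332 in WT. The groups were far apart, and within each group the libraries lay close together. SRF KO held 13.1% of the WT level, and the log2 fold change was -2.93 (SE 0.06; adjusted p 1.16e-11 by edgeR). Only 0.0271% of the 14778 genes tested had a fold change as low as this.

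Fosb, a close relative that also activates transcription with Jun partners, was lower as well, but by less. Its levels were 109, 101 and 109.9 CPM in SRF KO replicates 1 to 3, against 258, 202 and 268 CPM in the WT libraries. WT replicate 2 was the lowest of its group and still far above every SRF KO library. With means of 107 ± 5.06 against 243 ± 35.4 CPM (SD, n = 3), SRF KO held 43.9% of what WT had. Fosb changed by -1.19 on the log2 scale (SE 0.09, edgeR adjusted p 1.47e-06).

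The Fos-related genes Fosl1 (Fra-1) and Fosl2 (Fra-2) moved the other way. Their proteins pair with Jun like Fos but lack its strong activation domain. Fosl1 had 261, 238 and 335 counts in SRF KO and 148, 91 and 142 in WT. As levels these were 9.70, 8.99 and 11.6 CPM against 4.08, 3.54 and 4.95 CPM. The lowest SRF KO library was thus above the highest WT library. Fosl1 was 2.41 times as high in SRF KO, and its log2 fold change was 1.27 (SE 0.14; adjusted p 2.08e-05 by edgeR). Its annotated exons share 1163 bases with Ccdc85b on the opposite strand, and since it is not stated whether counting used strand, reads of these genes cannot be told apart. Ccdc85b itself had a log2 fold change of 0.08 (edgeR adjusted p 0.722).

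Fosl2 had no overlap between the groups either. Its levels were 21.4, 20.95 and 23.7 CPM in SRF KO, against 11.2, 10.8 and 12.4 CPM in WT. It was 1.92 times as high in SRF KO, and its log2 fold change was 0.94 (SE 0.08; adjusted p 4.27e-06 by edgeR).

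Jun, the main partner of Fos, was lower in SRF KO. It is a gene of 1 exon whose protein is activated by the kinase JNK. Its levels were 68.8, 61.9 and 66.9 CPM in SRF KO, with 124, 107 and 125 CPM in WT. Every WT library was above every SRF KO library. SRF KO held 55.6% of the WT level, with a difference of -0.85 on the log2 scale (SE 0.07, edgeR adjusted p 2.01e-06).

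The other Jun genes, also of 1 exon each, differed less. Junb, often described as a weaker activator than Jun, had 49.7, 44.9 and 49.1 CPM in SRF KO, while WT had 62.2, 43.4 and 66.6 CPM. WT replicate 2 lay below all SRF KO libraries and the other WT libraries above them. The log2 fold change was -0.26, with a 95% interval from -0.53 to 0.01 (edgeR adjusted p 0.109), so that Junb did not pass the threshold. Without WT replicate 2 it was -0.42 (edgeR adjusted p 8.93e-06), and it also passed, at -0.37, with both replicate 2 libraries left out, an alternative chosen after the data were seen. Without WT replicate 3 it was -0.15 (edgeR adjusted p 0.324). The annotated exons of Junb share 173 bases with Prdx2 on the opposite strand, so that its counts can hold reads of Prdx2.

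Jund, the Jun gene that is expressed most evenly across tissues, had 123, 104 and 116 CPM in SRF KO, while WT had 162, 111 and 188 CPM. The groups overlapped because of WT replicate 2. The log2 fold change was -0.43 (SE 0.14, 95% interval -0.74 to -0.12), with an edgeR adjusted p of 0.0311. This call was lost without SRF KO replicate 2 (-0.36), SRF KO replicate 3 (-0.44), WT replicate 1 (-0.39) or WT replicate 3 (-0.27), under DESeq2 (-0.42) and with library totals as the only scaling (-0.40), where the edgeR adjusted p was 0.0554. Without WT replicate 2 the log2 fold change of Jund was -0.61. Junb and Jund have the highest GC content of the members, 62.6% and 67.1% of the longest coding transcript. Over 11417 genes with a mean of at least 2 CPM, WT replicate 2 deviated from the WT mean by a median of -0.16 (log2) in the fifth of genes with the highest GC and by 0.11 in the fifth with the lowest. The part of this in the Junb and Jund values was not tested.

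Atf3, a stress-induced factor that often acts as a repressor, was higher in SRF KO. Its levels were 39.1, 36.5 and 38.1 CPM in SRF KO, against 23.2, 21.8 and 22.8 CPM in WT. The groups did not overlap, and the SD within either group was under 2 CPM. Atf3 was 1.68 times as high in SRF KO, and its log2 fold change was 0.75 (SE 0.06; adjusted p 2.92e-06 by edgeR).

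**Figure D1:**
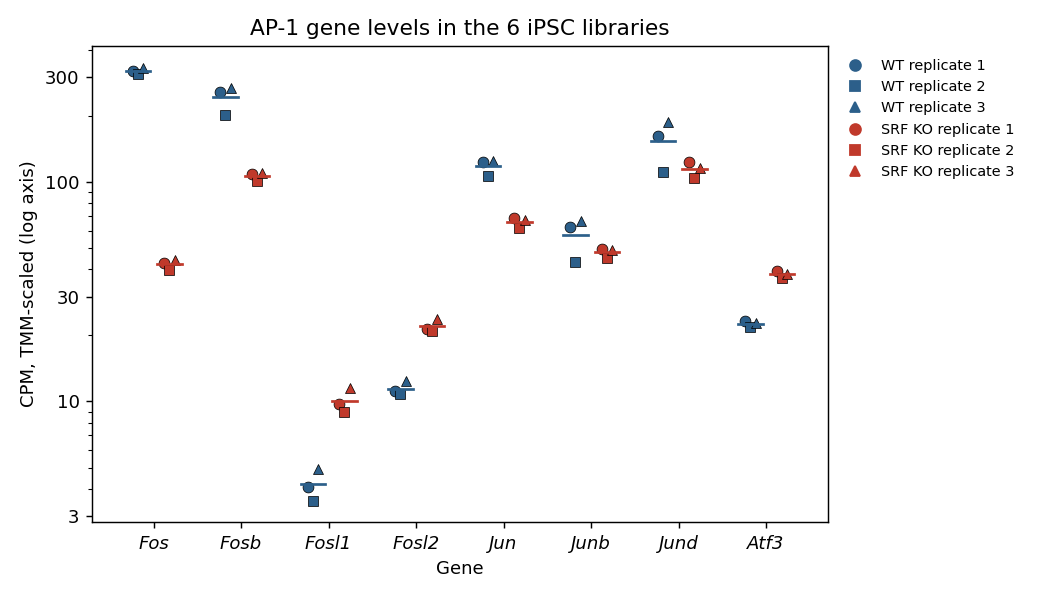
Level of each AP-1 gene in each library in TMM-scaled CPM, on a log axis, with WT in blue, SRF KO in red, the marker shape giving the replicate number and the horizontal lines the group means. Fos lies between 312 and 332 CPM in WT, and in SRF KO between 39.6 and 44.2 CPM. Fosl1, Fosl2 and Atf3 are higher in every SRF KO library, and Junb and Jund overlap.

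In all, 7 of the 8 members passed the threshold, 3 higher and 4 lower in SRF KO. Over all 14778 genes tested, 42.4% passed, 21.2% higher and 21.3% lower, so that calls were common in this comparison. For 6 members the SRF KO and WT values did not overlap, 3 higher and 3 lower, against 52.7% of all genes, 26.2% higher and 26.5% lower. The median log2 fold change of the 8 members was -0.35, beside -0.01 for all genes tested, but this median stands between opposite changes. Fos and Fosb were below the 5th percentile of all genes (-0.65), as was Jun, and Fosl1 was above the 95th (1.05).

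**Figure D2:**
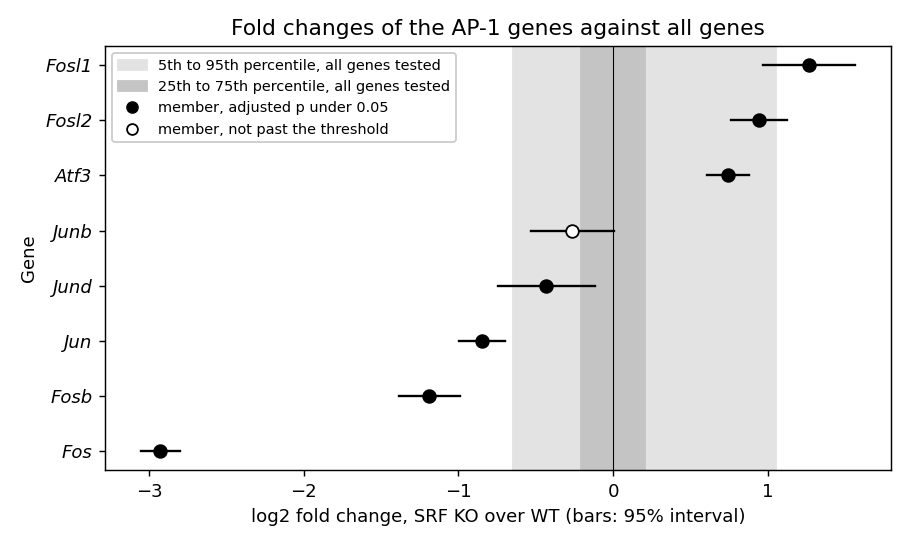
Log2 fold change of SRF KO over WT for each AP-1 gene, with its 95% interval as a bar, over grey bands that hold the 5th to 95th and the 25th to 75th percentiles of all genes tested. Filled points passed the threshold; Junb at -0.26 did not, and Fos at -2.93 lies far outside the bands.

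To compare levels between genes, CPM were divided by the length of the longest transcript in kb. In WT, Fos was the highest of the 8 at 152 ± 4.82 CPM per kb, followed by Jund at 92.2 ± 23.4, Fosb at 64.2 ± 9.37, Jun at 37.1 ± 3.12, Junb at 31.7 ± 6.81, Atf3 at 11.4 ± 0.360, Fosl1 at 2.25 ± 0.382 and Fosl2 at 1.75 ± 0.127 (SD, n = 3). Of these neighbours, Jund and Fosb overlapped between libraries, as did Jun and Junb. In SRF KO the order began with Jund at 68.5 ± 5.75 CPM per kb, followed by Fosb at 28.2 ± 1.34, Junb at 26.5 ± 1.45, Jun at 20.6 ± 1.11, Fos at 20.0 ± 1.11, Atf3 at 19.1 ± 0.674, Fosl1 at 5.41 ± 0.718 and Fosl2 at 3.36 ± 0.224 (SD, n = 3). Here Fosb and Junb overlapped between libraries, and so did Jun, Fos and Atf3. Within each library of either group, the order of the genes on this length was nonetheless that of the group means. The place of Fosb in this order depends on the transcript length: on the merged length of all exons it was at 17.1 CPM per kb in SRF KO, below Junb (20.8), Jun (20.6), Fos (17.9) and Atf3 (17.6), while the WT order was the same on both lengths. Fos was thus at the top of the order in WT on both lengths. In SRF KO it was within the range of Jun and Atf3 on the longest transcript. On the merged length its SRF KO mean of 17.9 was below that of Jun (20.6) and near that of Atf3 (17.6).

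The makeup of the Fos and Jun transcript pools was then compared within each library, which needs no scaling between libraries. Fos made up 67.7%, 72.2% and 67.6% of the length-scaled Fos pool in WT and 35.2%, 35.1% and 35.0% in SRF KO. These shares did not overlap, and the difference of -34.1 percentage points gave p = 0.1 by exact permutation (two-sided), the smallest that 3 libraries against 3 allow. Fosb took 29.0% ± 2.53 of the pool in WT and 49.5% ± 0.846 in SRF KO, so that it was the largest part of the pool in SRF KO on this length. On the merged length of all exons, which for Fosb is far greater, Fos held 42.5% and Fosb 40.5% in SRF KO, so that the order of these genes there depends on the transcript used. Fosl1 went from 1.01% ± 0.111 to 9.47% ± 0.784 and Fosl2 from 0.794% ± 0.0241 to 5.90% ± 0.206 (SD, n = 3). The whole Fos pool averaged 221 ± 14.2 CPM per kb in WT, of which 25.8% was left in SRF KO at 57.0 ± 3.24 (SD, n = 3).

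In the Jun pool, Jund was the largest part in every library, with 56.8% ± 3.02 (SD, n = 3) across WT and 59.2% ± 0.783 across SRF KO. Jun made up 17.6%, 18.2% and 17.8% in SRF KO and 22.7%, 27.0% and 20.7% in WT. The difference of -5.61 percentage points again gave p = 0.1, the smallest possible, when permuted exactly and two-sided. The Jun pool as a whole averaged 161 ± 33.1 CPM per kb in WT and, at 116 ± 8.27 (SD, n = 3), 71.8% of that in SRF KO. The Fos pool was larger than the Jun pool in all WT libraries, with log2 ratios of 0.39, 0.72 and 0.31, and smaller in all SRF KO libraries, with -1.09, -0.99 and -0.98. On the merged length of all exons the ratios were between 0.06 and 0.50 in WT, so that the lowest was near equal pools. In SRF KO they were between -1.45 and -1.33 on that length. The difference of -1.49 on the longest transcript gave the same exact two-sided p of 0.1. Over these 3 quantities the Benjamini-Hochberg adjusted value of this exact test was 0.1 each. RNA levels do not give the amounts of the proteins.

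**Figure D3:**
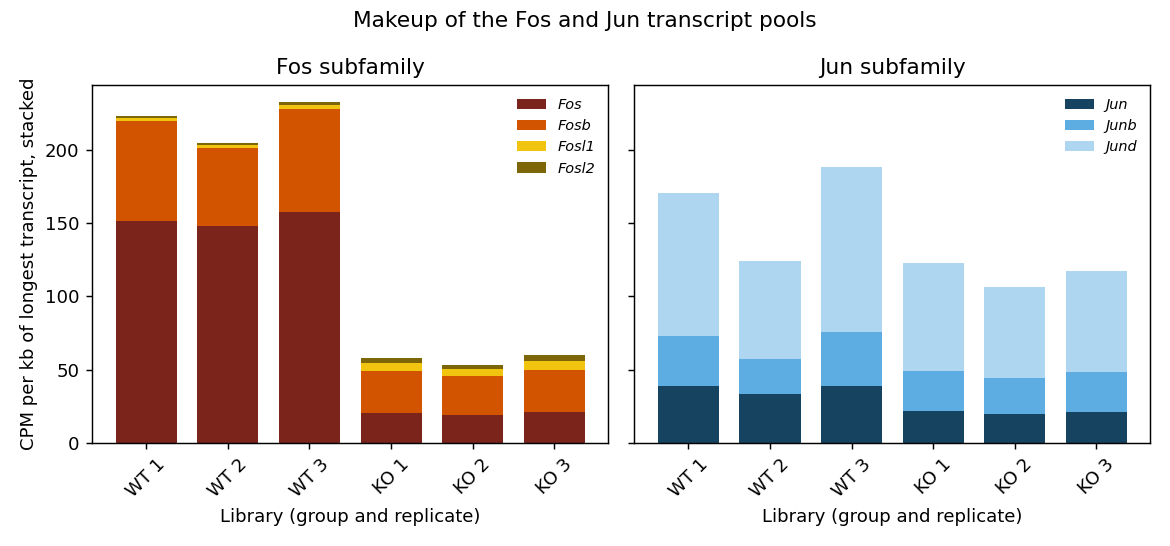
Stacked CPM per kb of the 4 Fos genes and the 3 Jun genes in each library, both panels on the same axis starting at 0. The Fos pool averages 221 in WT and 57.0 in SRF KO, with Fos the largest part in WT and Fosb, on this length, in SRF KO, while Jund is the largest part of the Jun pool in all 6 libraries.

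The members also shared a pattern between replicates that the groups do not explain. In SRF KO all 8 were lowest in replicate 2, and in WT all 8 were lowest in replicate 2 as well. Of all genes tested, 39.0% were lowest in SRF KO replicate 2, 46.1% in WT replicate 2 and 25.4% in both. Among 27 other immediate-early genes 16 were lowest in both, among 20 fibroblast markers 12, and among 11 heat shock genes 2. The size differed between members. In WT, Fos and Atf3 had an SD of log2 CPM of 0.0455 and 0.0459, while Fosb had 0.220, Junb 0.332 and Jund 0.390. The corresponding SD in SRF KO ranged from 0.0511 for Atf3 to 0.188 for Fosl1. With both replicate 2 libraries left out, 3 members were higher and 5 lower, Junb joining the calls. In the fifth of genes with the highest GC, the median deviation was -0.16 in WT replicate 2 and -0.06 in SRF KO replicate 2. In the fifth with the lowest GC these were 0.11 and 0.06. All 8 members had more GC, from 51.9% (Fos) to 67.1% (Jund), than the median of 50.5% over 13537 genes. Only Fosl1, Junb and Jund were within the range of the highest group, 56.1% to 72.8%. Fosb, Fosl2 and Jun were within 52.3% to 56.1%, where the median deviation was -0.08 in WT replicate 2 and -0.03 in SRF KO replicate 2. Fos and Atf3 were within 48.5% to 52.3%, where it was -0.011 in WT replicate 2 and -0.005 in SRF KO replicate 2. The part of GC content in this shared pattern was not tested.

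**Figure D4:**
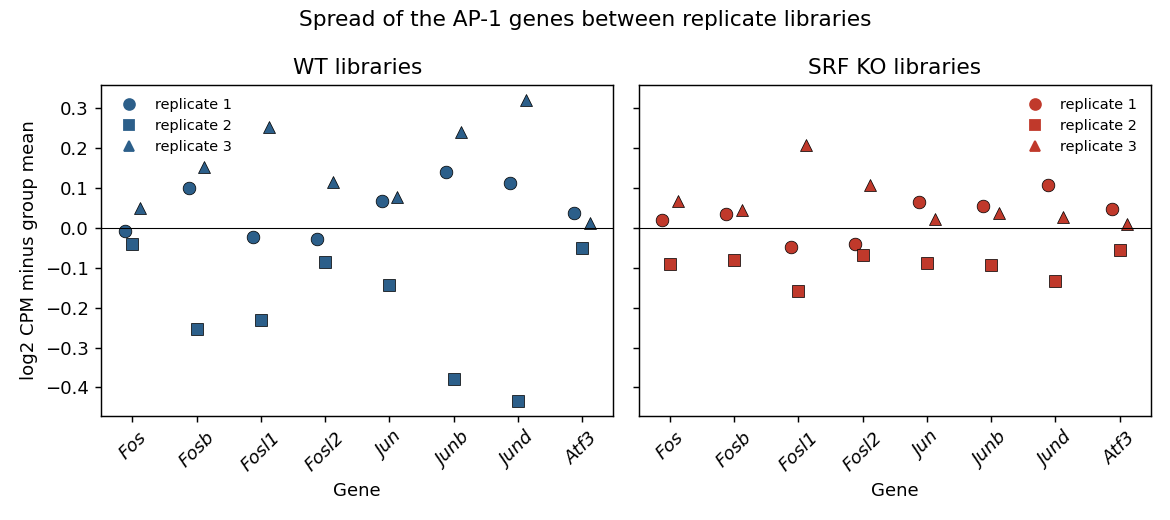
Log2 CPM of each AP-1 gene in each library minus the mean of its group, WT in the left panel and SRF KO in the right. The squares, replicate 2, are the lowest point for all 8 genes in both panels, and reach -0.43 for Jund and -0.38 for Junb in WT but -0.04 for Fos.

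The genes around AP-1 were examined next, beginning with its upstream regulators. Of the SRF cofactors and Srf, 6 were tested, of which 1 was higher and 2 lower. Elk3, a ternary complex factor that can repress, rose by 0.94 on the log2 scale (SE 0.08, edgeR adjusted p 4.78e-06), close to that of Fosl2. Elk1 fell by 0.30 (log2, SE 0.06, edgeR adjusted p 0.00193), and Elk4, Mkl1 and Mkl2 did not pass the threshold, with 0.20, 0.19 and 0.05. Of 23 kinases of the ERK, JNK and p38 cascades, 1 was higher and 11 lower, with a median of -0.14. For comparison, 21.2% of all genes tested were called higher and 21.3% lower. Mapk3, an ERK gene, was at -0.14 and did not pass, while the JNK genes Mapk8 and Mapk9 fell by 0.28 and 0.31 (edgeR adjusted p 0.00371 and 0.000704). The kinases with the smallest p were Mapk13 (-0.95), Rps6ka2 (-0.48), Map3k1 (-0.51) and Mapk11 (-0.64). Among 17 feedback genes of these cascades 6 were higher and 4 lower, with a median of 0.11. Dusp4 rose by 0.96, Spry4 by 0.48 and Spry2 by 0.34, while Dusp1, itself an immediate-early gene that inactivates JNK and p38, fell by 0.69 (all log2).

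Of 27 other immediate-early genes, 10 were higher and 9 lower, with a median log2 fold change of 0.12. Over all genes tested, 21.2% were called higher and 21.3% lower. Among the lower ones, Egr1 (-2.29) and Egr2 (-1.40) fell furthest, and the rest lay between -0.52 and -0.23 (log2). Egr1, a zinc finger factor and SRF target, had 50.6 ± 3.55 CPM left in SRF KO where WT had 248 ± 22.9 (SD, n = 3). By contrast Myc rose, to 87.8 ± 1.39 CPM from 41.0 ± 0.378 (SD, n = 3), by 1.10 on the log2 scale (SE 0.05, edgeR adjusted p 1.56e-08). Phlda1 and Plk2 rose by 1.39 and 0.79.

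Other bZIP factors, which can pair with or compete with AP-1 proteins, changed in both directions. Of 26 listed, 21 had enough counts to be tested, 6 higher and 5 lower where 42.4% of all genes tested passed in either direction, and the median of 0.04 balances opposite changes. Those with the smallest p were Atf4, a factor of the stress response, at 0.34, Bach2, a repressor, at -0.53, Maf at 0.99 and Nfe2l3 at -1.14. The partners Atf2 (-0.06) and Jdp2 (0.05) did not pass the threshold, nor did Ddit3, a bZIP factor induced by stress, at -0.18 (edgeR adjusted p 0.0901), and Batf, Batf2 and Batf3 had too few counts. Of 15 genes of the integrated stress response, in which Atf3 acts, 8 were higher and 4 lower, with a median of 0.34. Herpud1, Chac1, Slc7a11 and Trib3 rose by 0.75, 0.90, 1.16 and 0.58, whereas Asns fell by 0.26. Heat shock genes, which mark stress of another kind, were 1 higher and 2 lower of 11, with a median of 0.04. Hsp90aa1 and Hsp90ab1 fell by 0.41 and 0.19, and Bag3 rose by 0.41.

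Known AP-1 target genes were mostly higher in SRF KO. Of 24 tested, 15 were higher and 1, the metallothionein gene Mt2, was lower, with a median log2 fold change of 0.53 beside -0.01 for all genes. The shares over all genes tested were 21.2% higher and 21.3% lower. The hyaluronan receptor gene Cd44 rose to 81.8 ± 5.31 CPM from 31.5 ± 2.65 (SD, n = 3), by 1.38 on the log2 scale (SE 0.07, edgeR adjusted p 6.10e-08). The urokinase receptor gene Plaur, the metalloproteinase inhibitor gene Timp1 and the chemokine gene Ccl2 rose by 1.31, 1.05 and 1.70 (log2). The urokinase gene Plau rose by 1.33 and the cytokine gene Il6 by 1.51. Ccnd1, a cyclin gene, rose by 0.42, whereas Vegfa (0.08) and Hbegf (0.00) did not pass the threshold.

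Fibroblast and extraembryonic endoderm markers moved in the same direction as Fosl1, Fosl2, Atf3 and these targets, while trophoblast markers did not. Of 20 fibroblast markers 19 were higher in SRF KO and none lower, with log2 fold changes from 0.57 to 1.46 around a median of 1.08. Beside these counts and those below stand 21.2% higher and 21.3% lower over all genes tested. Their summed level was between 1541 and 1886 CPM in the SRF KO libraries and between 761 and 884 CPM in WT, and none was at 0 in all libraries. All 16 extraembryonic endoderm markers tested were higher, with a median of 3.64 and summed levels between 4003 and 4274 CPM against 623 and 656 CPM. Ttr was at 0 in all WT libraries. Trophoblast markers were 1 higher and 3 lower of 8 tested, with a median of -0.25 and summed levels between 73.4 and 75.5 CPM in SRF KO against 104 and 113 CPM in WT. The lower ones were Krt7 (-2.43), Tfap2c (-1.10) and Ascl2 (-0.80), and Tpbpa was at 0 in every library. The part of such cells or states in the AP-1 values was not tested.

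**Figure D5:**
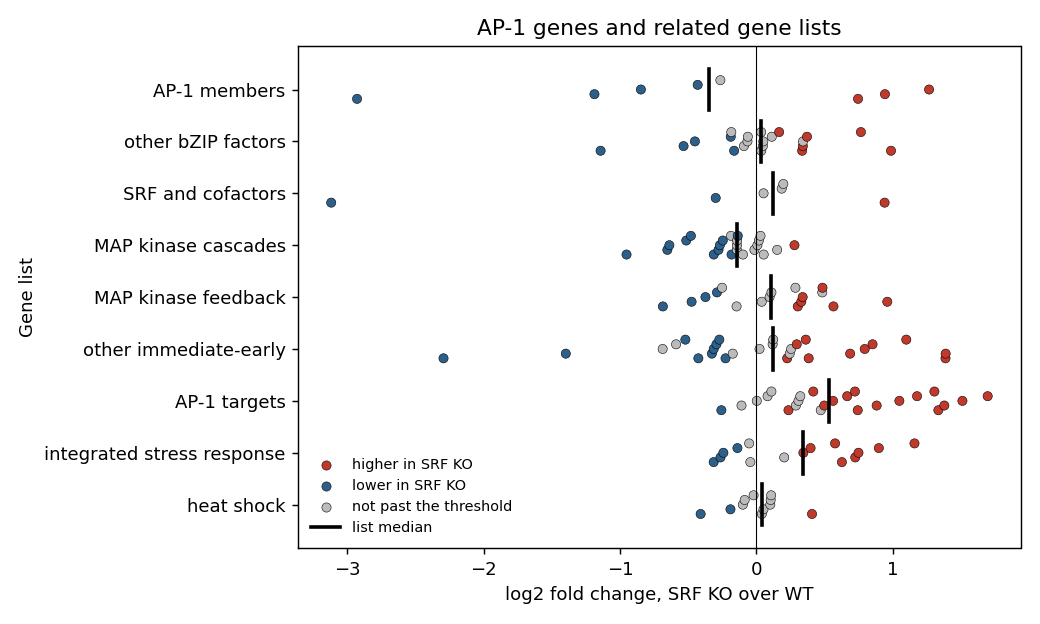
Log2 fold change of each tested gene of the AP-1 family and of 8 related lists, red for higher and blue for lower in SRF KO past the threshold, grey for the rest, with the list median as a black line. The AP-1 family spans -2.93 to 1.27, and the AP-1 target list has the highest median, 0.53.

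Genes with the most similar pattern to each called member were found by the root mean square difference of centred log2 CPM over the 6 libraries, among 12336 genes with a mean of at least 50 counts. Since group means dominate this measure, it mostly finds genes with the same fold change. Nearest to Fos were Klhl13, Srf and Trim67, with differences from 0.0821 to 0.236. Their fold changes were -2.97, -3.12 and -2.53, so that few genes fell as far as Fos. Nearest to Fosb were Ubald1, Sox15 and Aire (0.0328 to 0.0597), and nearest to Jun were Pianp, Gpx4 and Kdm4b (0.0156 to 0.0368). Nearest to Jund were Sh2b2, Irs2 and Fbrsl1 (0.0587 to 0.0733), of which Sh2b2, like Jund, passed the threshold narrowly, with an edgeR adjusted p of 0.0428. Among the members that rose, Fosl1 was nearest to Lrrc32, Adamts5 and Prelp (0.0405 to 0.0586). Fosl2 was nearest to Xist, Irgm1 and Gpx3 (0.0409 to 0.0425), and Atf3 to Pxdn, Cttnbp2 and Mcam (0.0205 to 0.0349).

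Finally, features of the transcripts that do not come from the counts were compared. AU-rich elements, built from the pentamer ATTTA (as DNA), mark many short-lived immediate-early mRNAs. The annotated 3′ UTR of Fos holds 4 such pentamers in 815 bases, or 4.91 per kb, more than 93.9% of 13537 genes. Junb had 4.12 per kb and Jun 3.24, and Atf3 had 2.53. Fosb had 1 in 2145 bases, or 0.466 per kb, below the median of 1.26 over all these genes. Fosl1, Fosl2 and Jund, at 1.57, 1.72 and 1.88 per kb, lay somewhat above that median. Fos, Jun and Junb, all with negative log2 fold changes, had more than every member that rose, although Junb did not pass the threshold. Atf3, which was higher in SRF KO, had more than Fosb and Jund, which were lower. The part of this density in the changes was not tested. Fos, Fosb, Fosl1, Fosl2 and Atf3 have 4 exons in their longest transcripts, and the Jun genes 1. For Jun, Junb and Jund, exons of other genes on the opposite strand share 232, 173 and 877 bases. Without known strand, these counts can hold reads of Junos, Prdx2 and Gm11175. Prdx2 had 5621, 5416 and 6006 counts in SRF KO and 7179, 4415 and 5804 in WT. Its log2 fold change was 0.12 (edgeR adjusted p 0.152).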

How the data were processed

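RNA of iPSCs was measured by bulk RNA sequencing in 3 SRF KO and 3 WT libraries. Per the labels' protocols, paired reads of 150 bp were cleaned of adaptor, low-quality and empty reads. The deposited table holds whole-number counts per gene and per transposable element subfamily, without normalization. The submitters' processing notes name build mm10 and DESeq2, without a role. The aligner, the counting program, the annotation and its strand setting are not given in the sources used here. Columns were matched to samples by name.

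All rows were fitted in R 4.3.3 with edgeR 4.0.16 (filterByExpr with a minimum count of 10, TMM, quasi-likelihood test), and p-values were adjusted by Benjamini-Hochberg over all rows tested. The replicate number was not a term. Alternatives were other scaling, no filter, gene rows alone, DESeq2 1.42.0, a replicate block, a stricter threshold and each library left out. Lengths, exons and 3′ UTRs came from GENCODE M21 (GRCm38), and promoters from RefSeq (GRCm38.p6). The scripts were tested on simulated data. Counting error alone gives a relative error that falls with the count, while 0 counts leave room for up to 3, which is between 0.0828 and 0.117 CPM here, for counting error only. Replicates differed beyond sampling noise in chi-square tests (1.85 to 15.9 per degree of freedom).

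The members, the lists and the rule for naming genes were chosen with earlier results of these data known. The lists were typed from general knowledge. The genes named are the 8 members, Srf and the 3 genes most like each called member. From each list except those of cell type markers, the (at most 4) called genes with the lowest p were named too. Other names (among them Elk4, Mkl1, Mkl2, Mapk3, Mapk8, Mapk9, Egr2, Atf2, Jdp2, Asns, Ddit3, Krt7, Tfap2c, Ascl2, Plau, Il6, Ccnd1, Vegfa, Hbegf and Mt2) were chosen after their values were seen.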

Additional observations from a re-analysis of the deposited data

How the results depend on the processing

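Of 167 comparisons of a result with an alternative, 157 kept the direction and the side of the threshold, or the count within 1.5 times. None reversed. The exceptions were all Jund (7 weaker) and Junb (3 stronger). Jund passed no longer with library totals as the only scaling (-0.40), under DESeq2 (-0.42) and at an adjusted p under 0.01 (-0.43). Across the 6 fits that each left out 1 library it was between -0.61 and -0.27, and 4 of them lost the call. Junb passed with the replicate block (-0.25) and with both replicate 2 libraries left out (-0.37), and across the fits without 1 library it was between -0.42 and -0.15, passing only when WT replicate 2 was the one left out. The cause was not tested. Over the same 6 fits, Fos was between -2.96 and -2.88, Fosb between -1.30 and -1.11, Jun between -0.91 and -0.80, Fosl1 between 1.15 and 1.39, Fosl2 between 0.89 and 0.999 and Atf3 between 0.72 and 0.78. Always 3 members were higher in these fits, and between 3 and 5 lower.

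The main fit did not pair libraries by replicate number, since the sources used here name no pairing. The deviations from the group means correlated by 0.0574, 0.383 and 0.236 between libraries of the same number. SRF KO replicate 1 correlated best with WT replicate 3, while SRF KO replicates 2 and 3 did so with WT libraries of their own number. With 3 libraries per group, these correlations cannot decide whether libraries of the same number share a source or batch. With the replicate block, 3 members were higher and 5 lower. With 3 libraries per group the tests of pool shares cannot fall below 0.1, so that their stability was judged by direction alone, which held in all alternatives run. Depth limits Fosl1 most, with 91 counts in WT replicate 2.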
